A study of Mus musculus with 15 samples.

Results

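The Hox genes are the homeobox transcription factor genes of the HoxA, HoxB, HoxC and HoxD clusters, and all 39 symbols of the form Hoxa, Hoxb, Hoxc or Hoxd plus a number were taken from the 19069 genes of the RNA files. They comprised 11 HoxA, 10 HoxB, 9 HoxC and 9 HoxD genes, and each also had a promoter window in the chromatin tables. The cells were NIH3T3, an established fibroblast line from mouse embryos. The irradiated groups received UV-C (254 nm) at 80 J/m2, were re-fed with medium containing DMSO and were harvested 6 h later, and they were set against untreated cells. Because the labels do not say that untreated cells were washed, re-fed or given DMSO, these steps cannot be told apart from UV. RNA-seq had 3 irradiated and 3 untreated libraries, and FAIRE-seq, which recovers open chromatin, and ChIP-seq for histone H3 acetylated at lysine 27 (H3K27ac) had 2 irradiated and 2 untreated samples each, deposited as pools beside 1 input DNA sample.

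Hox proteins bind DNA through a homeodomain, mostly together with PBX and MEIS cofactors, and give cells their position along the body axes. Within a cluster the genes stand in the order in which they are used from head to tail, so low paralog numbers mark anterior and high numbers posterior positions. Fibroblasts taken from different body sites keep different Hox genes active in culture, with active clusters carrying acetylated histones and silent clusters carrying the Polycomb mark H3K27me3, which was not measured here.

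The libraries held 14211528 to 20136117 counts in irradiated and 18183266 to 22032701 in untreated cells, of which Hox genes took 0.00923% to 0.0121% and 0.0116% to 0.0156%. At these depths 1 read corresponded to 0.0579 to 0.0674 CPM (counts scaled to a common library size) in irradiated and 0.0383 to 0.0518 CPM in untreated libraries. Both replicates 1 stood apart. Their counts differed from those of the other libraries of their group by a chi-square per degree of freedom of 42.3 and 44.4 in irradiated and 33.0 and 35.5 in untreated cells, against 4.62 and 14.2 between replicates 2 and 3, and irradiated replicate 1 had 17607 genes detected against 18350 to 18787 elsewhere. All 13 fibroblast markers checked, among them collagen I, vimentin and Pdgfra, reached at least 43.8 CPM on average in untreated cells. Of these 13, Thy1 and Fn1 were called higher after UV and Pdgfra lower, at 214, 404 and 413 CPM in irradiated and 466, 1254 and 1111 CPM in untreated libraries. Dcn was at 117, 390.0 and 468 CPM in irradiated and 85.6, 333 and 286 CPM in untreated libraries, low in both replicates 1. The 25 markers of epithelial, immune, endothelial, muscle, neuronal and pluripotent cells found in the files summed to 37.7 to 62.7 CPM in irradiated and 31.8 to 50.8 CPM in untreated libraries. Of these, 17 averaged 1 CPM or more in untreated cells and 1 averaged 5 CPM or more. Immune markers summed to 15.2 to 17.2 CPM in irradiated and 9.10 to 10.6 CPM in untreated libraries, a difference carried by Cd68, a lysosomal protein gene, which was called higher (mean of 10.6 CPM in irradiated and 4.03 CPM in untreated cells). The other 3 immune markers were not called. Nanog was called higher among the pluripotency markers, and the part of these marker changes in the Hox results was not tested. A level near 1 CPM was thus also reached by genes that define other cell types. The p-values for RNA measure the spread between libraries only, as the labels do not say whether these came from separate cultures.

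The untreated fibroblasts held the anterior part of HoxA, Hoxd3, Hoxd8 and Hoxd9 in HoxD and, more weakly, part of HoxC in acetylated chromatin, and no promoter of HoxB. Acetylation was read as H3K27ac of at least 1 on the scale of log2 enrichment over input in the 1000 bp promoter window, which allows comparison between genes because all windows have the same length. By this mark 12 of the 39 Hox promoters were acetylated, against 49.5% of all 21881 promoters. Among these were Hoxa2, Hoxa3, Hoxa4, Hoxa5 and Hoxa6, Hoxd3, Hoxd8 and Hoxd9, and Hoxc4, Hoxc5 and Hoxc9. Transcripts of 19 Hox genes averaged at least 1 CPM in untreated cells, against 66.6% of all genes, and all 12 genes with acetylated promoters were among them. At 5 CPM or more stood 8 Hox genes, against 50.6% of all genes, among them Hoxa2, Hoxa3, Hoxa5, Hoxa7, Hoxd4, Hoxd8 and Hoxd9. CPM values are not divided by transcript length, so levels were not ranked between genes.

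**Figure D1:**
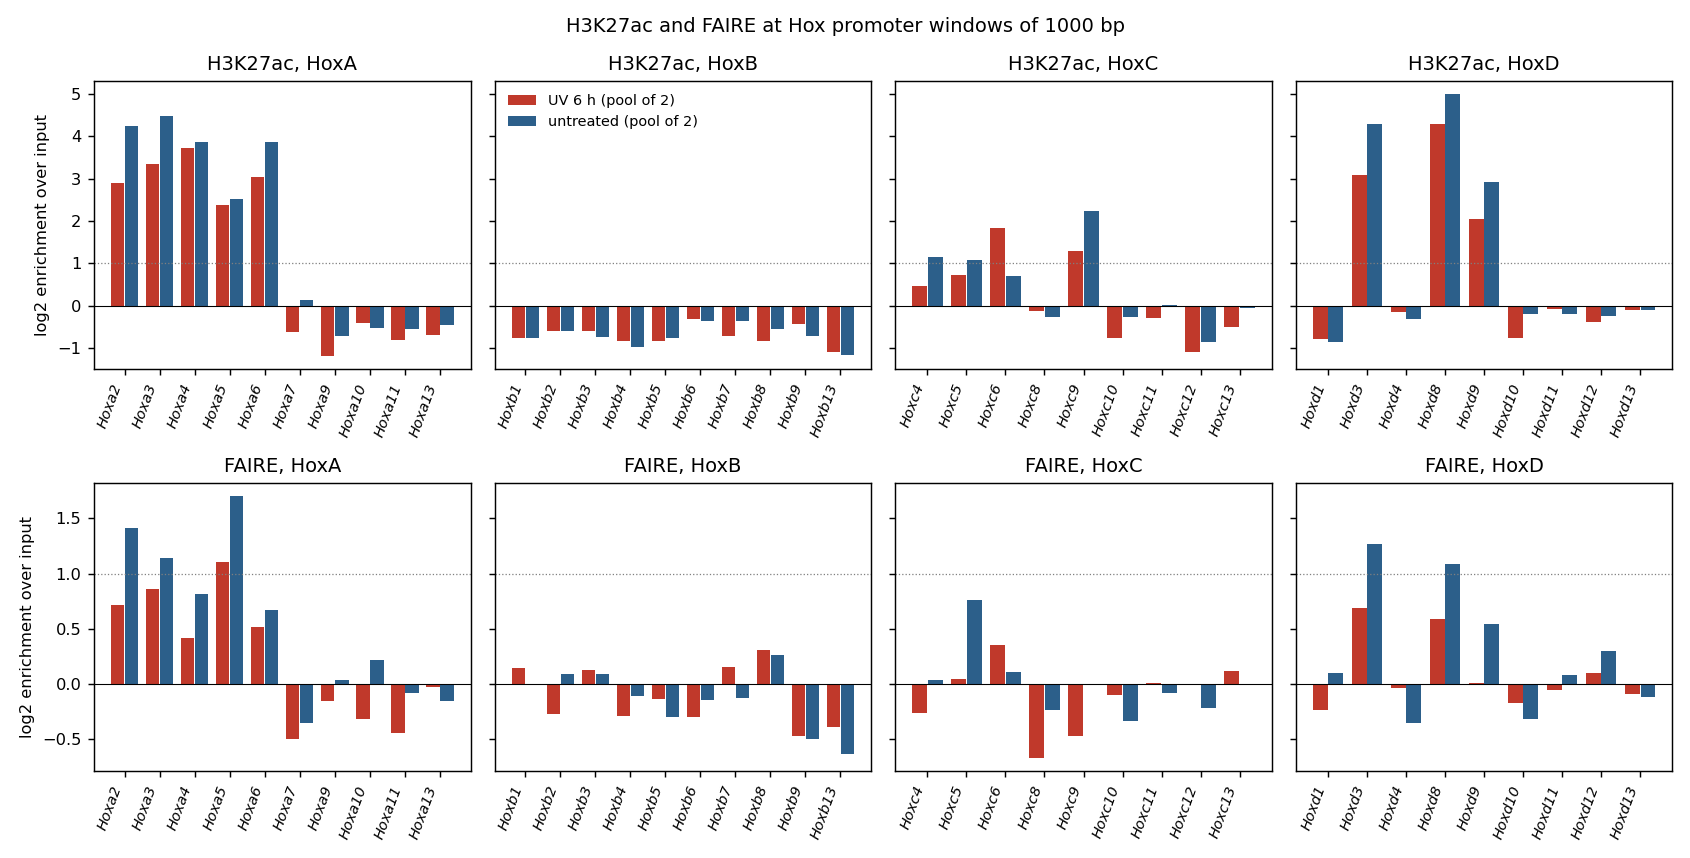
Log2 enrichment over input at Hox promoter windows for H3K27ac (upper row) and FAIRE (lower row), in order of paralog number. Bars show the irradiated and untreated pools, with a dotted line at 1. Acetylation in HoxA stops between Hoxa6 (3.85 in untreated cells) and Hoxa7 (0.13). No HoxB promoter lies above 0 for H3K27ac, while FAIRE at HoxB reaches 0.3 in irradiated and 0.27 in untreated cells.

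The acetylated part of HoxA ended sharply. Hoxa2, the selector gene of the second pharyngeal arch, had 4.25 and Hoxa3, which is needed for the thymus and parathyroid, had 4.48 log2 enrichment of H3K27ac in untreated cells. Hoxa4 (3.86), Hoxa5 (2.52), which acts in lung and cervical skeleton, and Hoxa6 (3.85) followed. The promoter of Hoxa7, the next gene by paralog number, had 34 H3K27ac reads against 42 unscaled input reads, an enrichment of 0.13. The promoters of the posterior genes Hoxa9, Hoxa10, Hoxa11 and Hoxa13 lay between −0.70 and −0.45. Transcripts were found beyond this edge. Hoxa7 had 5.82, 6.13 and 6.08 CPM in irradiated and 7.31, 12.5 and 9.84 CPM in untreated libraries, although its promoter window was not acetylated. Hoxa10 had 0.681, 1.48 and 0.985 CPM in irradiated and 2.33, 2.18 and 2.79 CPM in untreated libraries. Every irradiated library was below every untreated one for both genes. Hoxa9 had 0.309, 0.808 and 0.753 CPM in irradiated and 0.259, 0.5005 and 1.03 CPM in untreated libraries, which overlapped. Hoxa11 and Hoxa13, which act in the limb, reached at most 1.15 and 0.344 CPM in any library.

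In HoxD the acetylated block lay between unmarked ends. Hoxd8 had the highest H3K27ac of all Hox promoters, with 719 reads against 10 unscaled input reads in untreated cells, a log2 enrichment of 4.99 that exceeded 99.7% of all promoters. Hoxd3, which shapes the first cervical vertebra, had 4.28 and Hoxd9 had 2.93. Hoxd10, Hoxd11, Hoxd12 and Hoxd13, the digit and limb genes at the posterior end, lay between −0.23 and −0.09, and Hoxd1 at the anterior end had −0.86. Transcripts of Hoxd8 were at 38.9, 31.3 and 41.2 CPM in irradiated and 29.7, 34.4 and 26.7 CPM in untreated libraries, and those ranges overlapped. Hoxd9 had 4.52, 3.57 and 3.59 CPM in irradiated and 4.20, 7.19 and 5.70 CPM in untreated libraries. The promoter window of Hoxd4 was not acetylated (−0.31), while its transcripts had 4.58, 6.20 and 6.49 CPM in irradiated and 5.39, 8.51 and 10.5 CPM in untreated libraries. In the RefSeq annotation the span of Hoxd3 contains Hoxd4, and the span of Hoxa3 contains Hoxa4, Hoxa5 and Hoxa6, so reads of these genes may have been divided in a way that the sources used here do not state.

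The edges of both blocks are shown by the 250 bases before the annotated start of the last acetylated gene and of the next gene by paralog number (RefSeq, build GRCm38.p6, 5′ to 3′ on the gene's strand). Capitals mark CpG dinucleotides, which are dense in promoters of CpG islands.
Hoxa6, chr6:52208673-52208922, minus strand: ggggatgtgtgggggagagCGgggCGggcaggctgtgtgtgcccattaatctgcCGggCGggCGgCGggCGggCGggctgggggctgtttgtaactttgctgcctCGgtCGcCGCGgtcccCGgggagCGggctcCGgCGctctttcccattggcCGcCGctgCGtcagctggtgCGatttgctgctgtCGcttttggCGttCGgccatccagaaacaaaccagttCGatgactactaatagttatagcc
Hoxa7, chr6:52218574-52218823, minus strand: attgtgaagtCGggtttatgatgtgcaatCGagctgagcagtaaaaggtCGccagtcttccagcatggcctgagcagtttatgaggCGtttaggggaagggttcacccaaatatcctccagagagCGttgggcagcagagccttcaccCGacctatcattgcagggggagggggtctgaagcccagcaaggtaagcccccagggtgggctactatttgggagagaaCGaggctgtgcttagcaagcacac
Hoxd9, chr2:74697513-74697762, plus strand: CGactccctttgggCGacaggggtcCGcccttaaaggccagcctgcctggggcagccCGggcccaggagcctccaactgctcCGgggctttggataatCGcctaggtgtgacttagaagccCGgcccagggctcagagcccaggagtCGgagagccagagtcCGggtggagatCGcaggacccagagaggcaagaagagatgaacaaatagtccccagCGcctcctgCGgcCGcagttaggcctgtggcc
Hoxd10, chr2:74691641-74691890, plus strand: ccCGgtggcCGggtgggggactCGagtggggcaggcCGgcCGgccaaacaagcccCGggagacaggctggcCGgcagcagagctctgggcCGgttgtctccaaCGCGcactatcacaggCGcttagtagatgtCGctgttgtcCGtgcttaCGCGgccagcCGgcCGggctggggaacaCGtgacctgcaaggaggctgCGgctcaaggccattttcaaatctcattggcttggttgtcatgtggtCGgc
The acetylated Hoxa6 promoter held 24 CpG and the unmarked Hoxa7 promoter 7, whereas the acetylated Hoxd9 promoter held 13 and the unmarked Hoxd10 promoter 20. CpG number therefore did not run the same way at both edges. These edges follow paralog number. By annotated start, the entry of the acetylated Hoxa3 (18 CpG) lies between those of Hoxa6 and Hoxa7. Of the 39 genes 22 had a promoter in the RefSeq table, with 24 entries in all. The 8 entries of genes acetylated in untreated cells held 6 to 28 CpG (median 12.5), and the 16 entries of other Hox genes held 2 to 35 (median 12.5), against a median of 6 over all 32851 entries. The motif TATAAA, searched on both strands like the others, was found in none of the 8 and in 4 of the 16 entries, those of Hoxa10, Hoxb8, Hoxd4 and Hoxd13, and in 12.4% of all entries. The motif TGANTCA of the UV-responsive factor AP-1 was in 1 Hox entry, of Hoxd11, and in 6.75% of all entries. The motif CCGCCC, bound by SP factors, was in 10 Hox entries and in 32.7% of all entries. The position of the deposited 1000 bp windows is not given in the sources used here, so these letters may lie outside them.

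HoxC was weakly active. Its acetylated promoters were those of Hoxc9, a thoracic patterning gene, at 2.25, Hoxc4 at 1.15 and Hoxc5 at 1.09, with Hoxc6 just under the mark at 0.71. Hoxc8, which acts in brachial motor neurons, had −0.25, and Hoxc10, Hoxc11, Hoxc12 and the hair keratin regulator Hoxc13 lay between −0.86 and 0.02. Transcripts of Hoxc4, Hoxc5, Hoxc6, Hoxc8 and Hoxc9 averaged between 1.34 and 3.40 CPM in untreated cells, and those of the 4 posterior genes less than 1 CPM. No HoxB promoter was acetylated. The 10 promoters had 2 to 16 reads of H3K27ac each in either condition, with enrichments of −1.08 to −0.31 in irradiated and −1.15 to −0.35 in untreated cells. Together the 10 HoxB genes had 4.02, 7.88 and 6.02 CPM in irradiated and 5.39, 4.82 and 8.995 CPM in untreated libraries. Hoxb9 alone made up 1.79, 2.96 and 2.20 CPM of this in irradiated and 2.38, 1.87 and 1.99 CPM in untreated libraries, with no acetylation at its promoter (−0.72 in untreated cells). The only other HoxB gene at 1 CPM on average in untreated cells was Hoxb3, with 0.466, 0.773 and 1.91 CPM, of which untreated replicate 3 held the highest value. Without that library 18 Hox genes in place of 19 reached 1 CPM, and Hoxb3 was the one lost. Hoxb1, a hindbrain gene, had 0.433, 1.21 and 0.753 CPM in irradiated and 0.674, 0.546 and 1.19 CPM in untreated libraries, which overlapped.

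Open chromatin was found at promoters of HoxA and HoxD. FAIRE enrichment was at least 1 at 6 Hox promoters in untreated cells, against 33.4% of all promoters, and all 6 were acetylated. Over all genes in both assays, 6629 promoters at this FAIRE level were acetylated and 38 were not. Among the 6 Hox promoters were Hoxa5 (1.71), Hoxa2 (1.41), Hoxd3 (1.27), Hoxa3 (1.14) and Hoxd8 (1.09). Next below the mark were Hoxa4 (0.81), Hoxc5 (0.76) and Hoxa6 (0.67), which were acetylated too. Across the 39 genes H3K27ac and FAIRE had a Spearman correlation of 0.618 in untreated cells, and across all 19069 genes of 0.827. Both assays share the input sample and the base composition of the windows. Of the 27 Hox genes without an acetylated promoter, 7 averaged at least 1 CPM in untreated cells (25.9%, against 33.9% of all genes without acetylation). Hoxa7 and Hoxd4 were the 2 among them at 5 CPM or more (7.41%, against 8.09%).

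**Figure D2:**
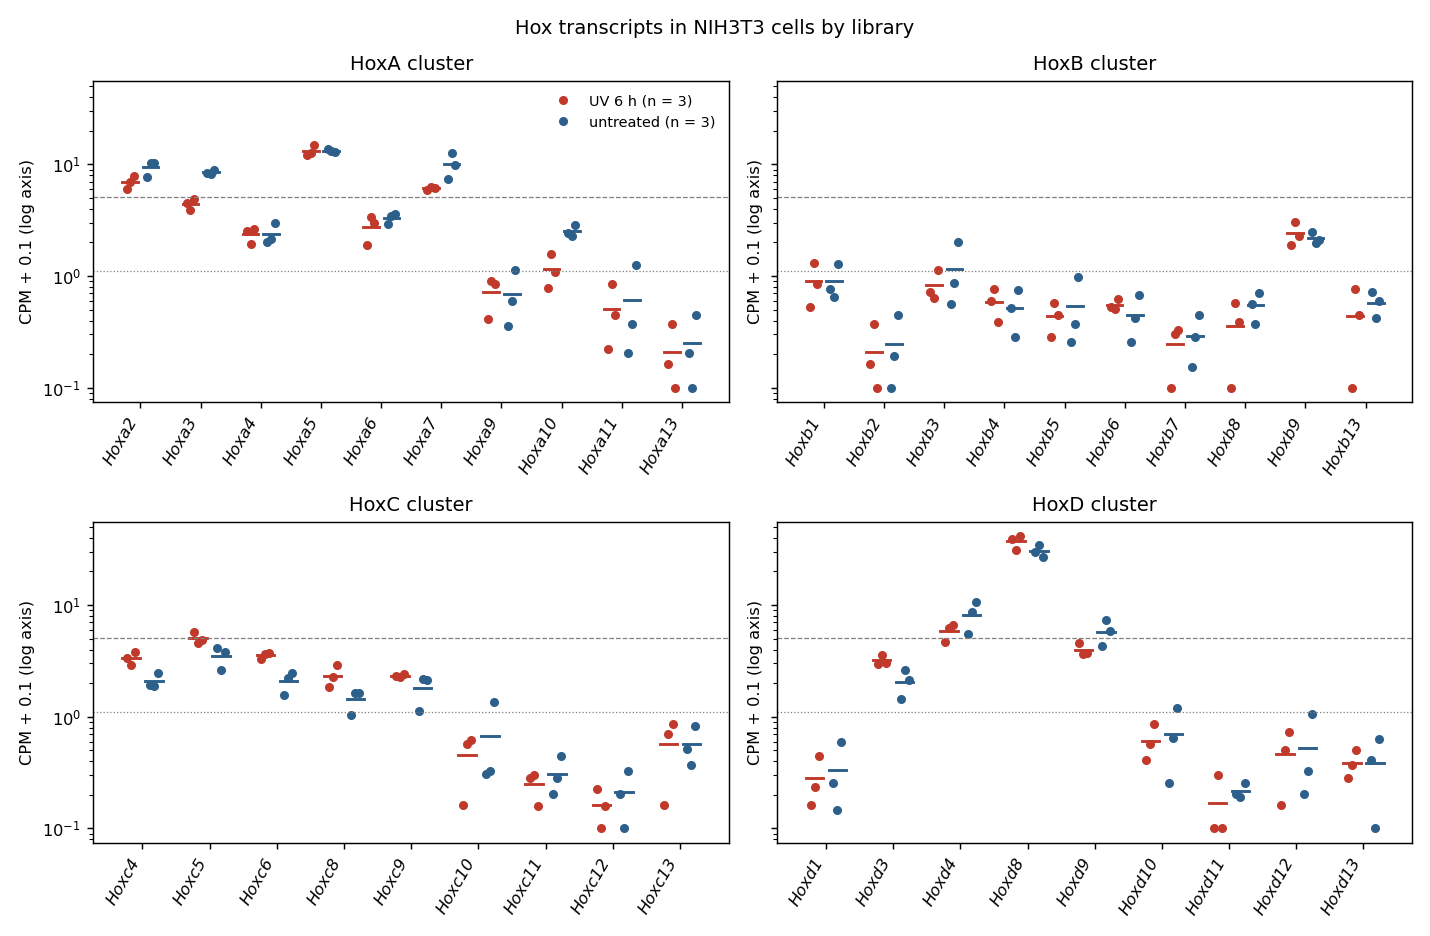
Transcript levels of 38 Hox genes in CPM plus 0.1 on a log axis, in order of paralog number within each cluster. There is a point per library (3 irradiated, 3 untreated) and a bar at each group mean. Dotted and dashed lines stand at 1 and 5 CPM, and the means of the genes of paralog groups 11 to 13 lie below the dotted line in both conditions.

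At 6 h after UV 2 Hox transcripts passed the test for a change, the HoxA genes Hoxa3 and Hoxa7, which both fell. Genes that were not called may still have changed, since in a simulation the test found 51.3% of genes altered by 1 on the log2 scale. Those genes were drawn from all tested genes, and the share found at the levels of the Hox genes was not measured. Of the 39 Hox genes 24 had enough counts to be tested. None was called higher, against 7.7% of the 14925 genes tested, and 2 were called lower, against 12.4%, with edgeR (quasi-likelihood, Benjamini-Hochberg adjusted p under 0.05). At an unadjusted p below 0.05 in the same test, 1 was higher (Hoxc6) and 4 were lower. The share of all tested genes at that unadjusted p is not given, so these counts are not read as a Hox trait. DESeq2, which gave an adjusted p for 18 Hox genes, called none higher and 2 lower, namely Hoxa3 and Hoxa10. Of all 18867 genes with a p-value it called 910 higher and 1395 lower. The median log2 fold change of the 24 genes was −0.01, as it was over all genes tested (−0.01).

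Hoxa3 had 4.39, 3.84 and 4.75 CPM in irradiated and 8.19, 8.10 and 8.84 CPM in untreated libraries. The groups did not overlap, and Hoxa3 fell by 0.95 ± 0.22 on the log2 scale (SE, adjusted p = 0.00486, edgeR). It was lower in each of the 13 alternative fits, including the fit without irradiated replicate 1 (adjusted p = 0.00125) and that without both replicates 1 (adjusted p = 0.000484), with adjusted p of at most 0.0351. The authors' deposited table also lists Hoxa3, with a log2 fold change of −0.93 and an adjusted p of 0.0495. Hoxa7, with the values given above, fell by 0.72 ± 0.23 (adjusted p = 0.0318, edgeR) and its groups did not overlap. Its call was lost in 6 of the 13 alternative fits. It was lost without untreated replicate 2 (−0.39, adjusted p = 0.291) or 3 (adjusted p = 0.142), without irradiated replicate 2 (adjusted p = 0.0510) or 3 (adjusted p = 0.104), with DESeq2 (adjusted p = 0.0840) and without a filter on low counts (adjusted p = 0.0612), and kept without irradiated replicate 1 (adjusted p = 0.0123) and without both replicates 1 (adjusted p = 0.000255). Without both replicates 1, Hoxd4 (−0.62, adjusted p = 0.0280, edgeR) and Hoxd9 (−0.89, adjusted p = 0.0109, edgeR) were called lower as well. These made 4 of 27 tested Hox genes, where 2692 of all 15589 tested genes were called lower. Hoxa10, a regulator of uterus and lumbar skeleton, did not overlap between groups either, at a log2 fold change of −1.22 ± 0.46 (adjusted p = 0.0748, edgeR). It passed with DESeq2 (adjusted p = 0.0376) and without irradiated replicate 2 (adjusted p = 0.0483), and the authors' deposited table gives −1.19 with an adjusted p of 0.0796.

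The other tested HoxA genes were not called. Hoxa2 had 5.88, 6.87 and 7.70 CPM in irradiated and 7.67, 10.1 and 10.3 CPM in untreated libraries, overlapping at 1 library of each group (log2 fold change −0.46 ± 0.21, adjusted p = 0.161, edgeR). Hoxa5 was at 12.1, 12.6 and 14.8 CPM in irradiated and 13.6, 13.01 and 12.7 CPM in untreated libraries, a log2 fold change of 0.00 ± 0.18. The summed CPM of HoxA was 43.0, 45.5 and 46.5 in irradiated and 51.9, 58.3 and 59.8 in untreated libraries. The 2 groups did not overlap for this sum. HoxC summed to 16.5, 16.4 and 18.5 CPM in irradiated and 10.1, 10.7 and 14.6 CPM in untreated libraries, which did not overlap either, in the other direction. By gene, 5 HoxC genes did not overlap in this direction with TMM scaling, against 16.6% of all tested genes. With library totals alone 1 did (Hoxc5), against 10.1%, so the separation of the HoxC sums may depend on the scaling. HoxD summed to 51.5, 46.1 and 56.4 CPM in irradiated and 41.5, 53.6 and 48.2 CPM in untreated libraries, which overlapped. Hoxd8 was not called (0.29 ± 0.18, adjusted p = 0.312, edgeR), and it was called higher only in the fit without untreated replicate 2 (0.51, adjusted p = 0.0456) among the 13 alternatives.

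**Figure D3:**
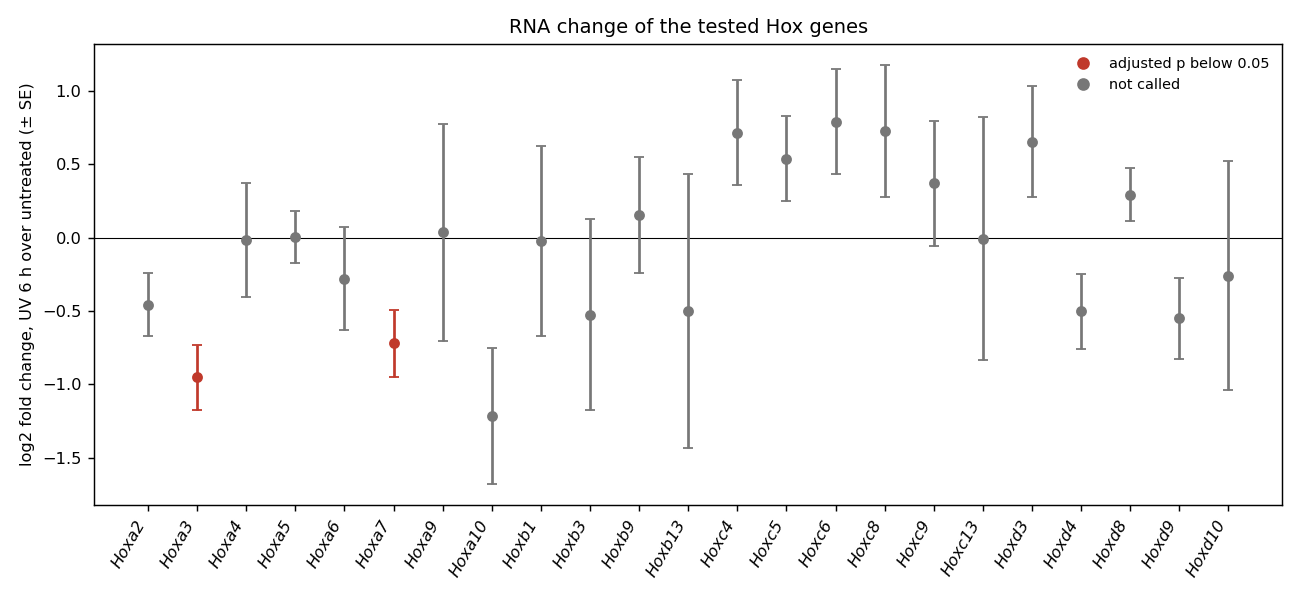
Log2 fold change of RNA, irradiated over untreated, with its standard error for 23 tested Hox genes in cluster order. Hoxa3 (−0.95) and Hoxa7 (−0.72) passed the adjusted p, while Hoxc4, Hoxc5, Hoxc6, Hoxc8 and Hoxc9 lie above 0 without passing it.

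The HoxC genes had values on the other side of 0. Hoxc6 had 3.22, 3.57 and 3.59 CPM in irradiated and 1.45, 2.14 and 2.37 CPM in untreated libraries (log2 fold change 0.79 ± 0.36, adjusted p = 0.141, edgeR). Hoxc4 had 3.28, 2.83 and 3.71 CPM in irradiated and 1.81, 1.77 and 2.37 CPM in untreated libraries (0.72 ± 0.36, adjusted p = 0.195, edgeR). Hoxc5 had 5.63, 4.45 and 4.75 CPM in irradiated and 3.99, 2.50 and 3.71 CPM in untreated libraries. Hoxc9 had 2.23, 2.16 and 2.32 CPM in irradiated and 1.04, 2.09 and 2.03 CPM in untreated libraries (0.37 ± 0.43), and Hoxc8 had a log2 fold change of 0.73 ± 0.45. Every irradiated library lay above every untreated one for these 5 genes and for Hoxd3, 6 of the 24 tested Hox genes, against 16.6% of all tested genes. Scaled by library totals alone, which moved the median of all tested genes to −0.24, this held for Hoxc5 only, against 10.1% of all tested genes. None of the 5 was called in any of the 13 alternative fits. On the opposite side, Hoxa3, Hoxa7 and Hoxa10 had every irradiated library below every untreated one, 3 of 24 against 17.3%.

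None of the 8 tested genes of paralog groups 9 to 13 passed in the main edgeR fit, where Hoxa10 had an unadjusted p of 0.0172. In alternative fits Hoxa10 passed with DESeq2 and without irradiated replicate 2, and Hoxd9 passed without both replicates 1. Hoxc13, Hoxd10 and Hoxb13 had low values. Hoxc13 had 0.0619, 0.606 and 0.753 CPM in irradiated and 0.415, 0.273 and 0.727 CPM in untreated libraries. Hoxd10 had 0.309, 0.472 and 0.753 CPM in irradiated and 0.155, 0.546 and 1.11 CPM in untreated libraries, and Hoxb13, a gene of prostate and tail, had 0, 0.674 and 0.348 CPM in irradiated and 0.622, 0.318 and 0.498 CPM in untreated libraries. The ranges overlapped for each of these genes. The remaining 15 Hox genes were not tested for lack of counts, and with no filter on low counts none of them was called (lowest adjusted p = 0.746, edgeR).

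Acetylation was lower after UV at most of the acetylated Hox promoters. Values are pools without replicates, so none of these differences was tested, and the intervals given cover counting error only. Among the 12 promoters acetylated in untreated cells 11 had lower enrichment after UV, with a median difference of −0.76, against 48.5% lower and a median difference of 0.02 over the 10834 promoters with the same mark. Both sets were chosen by the untreated value, which also enters the difference. Over all 39 Hox promoters the median difference was −0.22, against −0.01 over all 21881 promoters. Losses of 1 or more on the log2 scale occurred at 3 of the 39, against 3.43% of all promoters. Hoxa2 had 303 reads after UV and 797 in untreated cells, a depth-scaled ratio of 0.377 (95% interval 0.329 to 0.431) and a difference of −1.36 in log2 enrichment. Hoxd3 had 269 reads after UV and 639 in untreated cells (ratio 0.417, interval 0.361 to 0.482, difference −1.21). Hoxa3 had 480 reads after UV and 1067 in untreated cells (ratio 0.446, interval 0.400 to 0.497, difference −1.13). Hoxc9 (−0.96), Hoxd9 (−0.88), Hoxa6 (−0.81), Hoxa7 (−0.74), Hoxd8 (−0.71) and Hoxc4 (−0.67) were next. Hoxa7, which was not acetylated, had 14 reads after UV and 34 in untreated cells (ratio 0.408, interval 0.202 to 0.781).

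Some neighbours of these promoters had other values. Hoxa4 and Hoxa5 lay close to their untreated level, at ratios of 0.904 (interval 0.791 to 1.03) and 0.889 (interval 0.745 to 1.06). Hoxc6 was the single Hox promoter with a gain of 1 or more, against 2.38% of all promoters, with 122 reads after UV and 47 in untreated cells (ratio 2.57, interval 1.82 to 3.68, difference 1.12). It crossed the mark of 1 after UV, at 1.83, while Hoxc4 and Hoxc5 came below it, at 0.48 and 0.74, so that 11 Hox promoters were acetylated in irradiated cells, against 47.8% of all promoters. At the 10 HoxB promoters together 55 reads were found after UV and 53 in untreated cells.

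**Figure D4:**
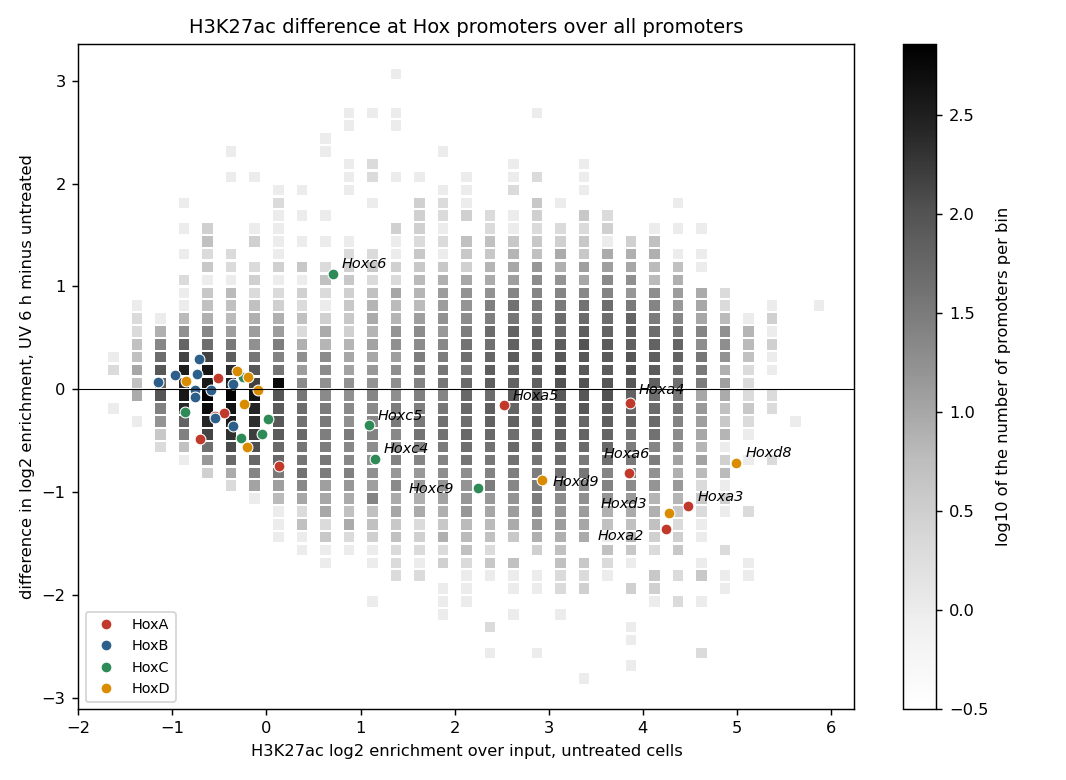
Difference in H3K27ac log2 enrichment, irradiated minus untreated, against the untreated value, with Hox promoters as coloured points by cluster over the density of all 21881 promoters in grey. Hoxa2 (−1.36), Hoxd3 (−1.21) and Hoxa3 (−1.13) lie low among the strongly acetylated promoters, and Hoxc6 (1.12) lies above 0.

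Of the Hox promoters 5 had an untreated enrichment of 4 or more, among them Hoxa2, Hoxa3, Hoxd3 and Hoxd8, and their median difference was −1.13, against 0.15 for the 1695 promoters at that level. In FAIRE all 6 promoters that were open in untreated cells had lower values after UV, at a median difference of −0.54, and so did 97.4% of the 7302 open promoters of the genome, at a median of −0.49. After UV 2 of the 39 promoters were at 1 or more, among them Hoxa5 (1.11), against 20.6% of all promoters. The largest FAIRE differences were at Hoxc5 (−0.72, with 19 reads after UV and 49 in untreated cells) and Hoxa2 (−0.70, with 43 and 93 reads). No Hox promoter lost or gained 1 or more, against 1.05% and 0.00457% of all promoters.

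At Hoxa3 and Hoxa7 both H3K27ac reads and RNA were lower after UV. At Hoxc6 both were higher in value, and the RNA did not pass the test. Hoxd3 had lower acetylation after UV, and its RNA was at 2.85, 3.50 and 2.95 CPM in irradiated and 1.35, 2.50 and 2.03 CPM in untreated libraries (log2 fold change 0.66 ± 0.38, adjusted p = 0.278, edgeR). Over the 12 acetylated Hox genes the sign was the same for 6, against 5036 of the 9662 acetylated and tested genes, and the Spearman correlation between the difference in H3K27ac and the RNA log2 fold change was 0.224, against 0.071 over those 9662. The genes of a cluster are neighbours and share libraries, so these are descriptions.

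Several partners of the Hox proteins fell after UV. Of 10 cofactor genes, all tested, 6 fell and none rose, against 12.4% and 7.7% of all tested genes, at a median log2 fold change of −0.67. Gmnn, whose product geminin binds Hox proteins and blocks replication licensing, had 8.29, 6.53 and 5.56 CPM in irradiated and 31.9, 22.3 and 18.4 CPM in untreated libraries (−1.83 ± 0.23, adjusted p = 1.91e-05, edgeR). Meis1, which stabilises Hox binding to DNA, had 35.5, 28.02 and 29.2 CPM in irradiated and 64.1, 72.6 and 62.04 CPM in untreated libraries. Pbx2 fell by 1.31 and Meis2 by 0.79 on the log2 scale, and Pbx3 and Pknox1 fell too. In 13 alternative fits 4 to 6 cofactor genes fell and at most 1 rose, where 1139 to 3739 of all genes fell and 585 to 1941 rose. Of 25 Polycomb genes, which keep silent Hox clusters closed, 7 fell and 2 rose, against the same shares of all tested genes. The median was −0.21. Cbx2 (−2.54), Kdm2b (−1.11) and Jarid2 (−1.23) fell, and the methyltransferase genes ran opposite ways, with Ezh1 at 9.16 to 10.8 CPM in irradiated and 17.9 to 23.8 CPM in untreated libraries and Ezh2 higher (0.66). Without irradiated replicate 3, 5 fell and none rose, where 1139 and 585 of all 15581 tested genes did. Without untreated replicate 2, 6 fell and 4 rose at a median of −0.016, where 1168 and 1941 of all 15587 did. With library totals alone 11 fell and 1 rose, where 3739 and 905 of all 14925 did, at a median of −0.24 over all. Of 15 Trithorax and demethylase genes found, 4 fell and 1 rose, against 12.4% and 7.7% of all tested genes, at a median of 0.09. Men1 (−1.19) was among those that fell, and Kdm6b, which removes H3K27 methylation, rose (0.94). Kdm6b had 36.2, 16.03 and 17.8 CPM in irradiated and 12.5, 10.8 and 13.1 CPM in untreated libraries, and without irradiated replicate 1 none of the list rose. Without irradiated replicate 2 or 3, or untreated replicate 1 or 2, 2 fell. In these fits 1453, 1139, 1511 and 1168 of 15205 to 15604 tested genes fell.

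Other position-marking factors of mesenchyme were given as another measure of positional identity. Of 27 tested 8 fell and 1 rose, against 12.4% and 7.7% of all tested genes, at a median of −0.41. Twist2 had 12.8, 11.4 and 10.7 CPM in irradiated and 30.5, 35.6 and 32.6 CPM in untreated libraries (−1.50 ± 0.17, adjusted p = 9.74e-06, edgeR). En1, a marker of dorsal dermis (−1.32), Foxf2 (−1.12) and Tbx18 (−0.95) also fell, and Dlx2 rose (1.49). With library totals alone 12 fell, where 3739 of all 14925 genes did. In the fits that left out a library 6 to 11 fell, where 1139 to 2849 of all genes did. Retinoic acid and Cdx genes act upstream of Hox genes in the embryo, and Cdx1, Cdx2 and Cdx4 were not tested. Of the 13 retinoic acid genes tested, the receptor genes Rxra (−1.60) and Rara (−1.45) fell. Of the same 13, 2 rose, among them the binding protein gene Crabp1 (0.86), against 12.4% lower and 7.7% higher of all tested genes. Of 9 tested genes that flank the clusters, Smug1, a uracil glycosylase gene beside HoxC, fell (−1.37) and Hibadh, beside HoxA, rose (0.53), against the same 12.4% and 7.7%. The call of Hibadh was lost in 6 of the 13 alternative fits, where none of these genes rose: without irradiated replicate 3, without both replicates 1, with DESeq2, with its size factors, with no filter and under a replicate block. The median was 0.20 for the tested retinoic acid genes and 0.06 for the flanking genes.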

How the data were processed

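The submitters' processing notes name Bowtie 0.12.9, TopHat, MACS2, DESeq2 and mouse build mm9, without saying which step each served. The deposited RNA files hold raw read counts per gene and library. Per the file headers, the promoter tables hold read counts in 1000 bp windows for the pool of each condition and for input, together with the authors' log2 enrichment. That value was recomputed exactly as log2 of (reads + 16) over (scaled input + 16), with input scales of 0.712 for irradiated and 0.706 for untreated H3K27ac, and 0.528 and 0.657 for FAIRE. The authors' deposited comparison table of 2068 genes gives a log2 fold change, a p-value and an adjusted p-value of up to 0.0999, and it was read as 6 h over 0 h. Pools named DMSO were read as irradiated, since the labels' protocol gives DMSO to irradiated cells, and 8 value columns were left out because they match no sample. Peaks inside the clusters are not analysed here.

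In R 4.3.3, edgeR 4.0.16 was run on the counts of all genes (filterByExpr, TMM, quasi-likelihood F test, Benjamini-Hochberg over 14925 genes). CPM values use TMM-scaled library sizes, and the SE is the log2 fold change over the square root of F. Promoter read ratios were divided by the ratio of input scales (1.01 for H3K27ac, 0.803 for FAIRE), with exact Clopper-Pearson 95% intervals that cover counting error only. Python 3.11.15 with pandas 2.3.3, scipy 1.17.1 and matplotlib 3.10.9 served for the promoters. In a simulation of the RNA comparison over 14291 genes, the test found 40 of 78 genes altered by 1 on the log2 scale (51.3%) and 97 of 107 altered by 2 (90.7%), with 8 false calls. Alternatives were DESeq2 1.42.0, its size factors, library totals, other filters, a replicate block and each library left out, and for promoters another pseudocount, threshold, centring or quantile normalization. For the other gene lists they were added after seeing the data, as was the fit without both replicates 1. Members and lists were chosen with earlier results of these data known. The rule for naming genes took called Hox genes, the 3 highest per cluster by mean CPM, tested genes of paralog groups 9 to 13 and up to 4 called members per other list. Other genes were named after their values were seen. Kmt2a, Kmt2b and Foxf1a, and 16 noncoding genes of the clusters, matched no symbol in the files. Single values of some genes are not reported here, though counts, medians and sums include them.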

Additional observations from a re-analysis of the deposited data

How the results depend on the processing

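Hoxa3 kept its direction and call in all 13 alternative fits. Of 293 values of single Hox genes under an alternative, 251 kept direction and side of the threshold, 6 lost a call (all Hoxa7), 5 gained one (Hoxa10 in 2, Hoxd8, Hoxd4 and Hoxd9 in 1 each) and 31 changed sign. None of the genes that changed sign was called. With library totals alone Hoxa5 was at −0.22, Hoxa9 at −0.19 and Hoxb9 at −0.048. With DESeq2 size factors in edgeR and with DESeq2's own test, Hoxa4 was at 0.0054 and 0.027, Hoxb1 at 0.014 and 0.023, and Hoxc13 at 0.025 and 0.034. Leaving out each library in turn gave −0.11 to 0.29 for Hoxa4, −0.093 to 0.16 for Hoxa5, −0.18 to 0.83 for Hoxa9, −0.44 to 0.52 for Hoxb1, −1.40 to 0.063 for Hoxb13, −0.86 to 0.35 for Hoxb3, −0.054 to 0.40 for Hoxb9, −0.53 to 0.59 for Hoxc13 and −0.65 to 0.64 for Hoxd10. The number of Hox genes called higher was 0 to 1 over these fits, with Hoxd8 called without untreated replicate 2 (0.51), and the number called lower was 1 to 2. Without both libraries numbered 1, a fit added after seeing the data, 4 were called lower, where 2692 of all 15589 genes were. In that fit Hoxa9 was at −0.014, Hoxb1 at 0.14, Hoxb13 at 0.27 and Hoxc13 at 0.40. The number of Hox genes called lower was 1 with no filter on low counts and 0 with a log2 fold change of at least 1 required. The median over tested Hox genes was −0.29 with no filter, and −0.20 to 0.30 with a library left out, highest without untreated replicate 3, where the median of all genes was 0.19. At 5 CPM, 8 Hox genes passed in place of 19. The median H3K27ac difference over the 39 Hox promoters was −0.22, against −0.01 over all promoters. It was −0.50 with 1 read added and −0.71 for the 13 Hox promoters above the median of all promoters by mean enrichment. At a threshold of 0.58, 2 Hox promoters gained and 9 lost H3K27ac, and with 1 read added 11 lost it. Shares of all promoters are not given for promoter counts at other thresholds or with 1 read added, so these counts are not read as a Hox trait. At a threshold of 2 no Hox promoter (0) was open by FAIRE. The median FAIRE difference over the 39 Hox promoters was −0.16, against −0.17 over all promoters. It was −0.36 with 1 read added and −0.50 for 11 such promoters, and 3 Hox promoters lost FAIRE at 0.58 and 3 with 1 read added. Medians of all promoters are not given with 1 read added or for promoters above the median by mean enrichment. The Hox medians in these settings are therefore not read as a Hox trait. The cause of the shifts between settings was not tested. Over all genes, 1149 were called higher and 1854 lower, and with library totals alone 905 and 3739. Without untreated replicate 1 or 2, 1796 and 1941 were called higher, and without untreated replicate 2, 1168 were called lower. Without irradiated replicate 3, 585 were higher and 1139 lower, and without irradiated replicate 1, 2849 were lower.

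The replicate numbers gave correlations of 0.155, −0.58 and 0.504 between same-numbered libraries, so they were not taken as pairs. With the replicate number as a block, 0 Hox genes were called higher and 2 lower (Hoxa3 and Hoxa7), the median was −0.02, and 1276 and 2067 of all genes were called higher and lower. Hox transcripts below about 1 CPM rested on few reads, and the promoter pools have no replicates.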
